A study of Mus musculus with 21 samples.

Results

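The glucocorticoid receptor gene Nr3c1 and 8 genes that respond to it in muscle, Fkbp5, Tsc22d3, Zbtb16, Ddit4, Cebpd, Sgk1, Glul and Pik3r1, were followed through exhaustive exercise and recovery in mouse quadriceps. They were taken by symbol, as 9 of the 53738 gene symbols in the expression table, with earlier results of these data known. All 9 passed the filter of a mean of at least 1 TPM, a unit of abundance that corrects for transcript length and library size. Cebpd did so only through the exercised groups, since its mean in sedentary muscle was 0.634 TPM.

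RNA of whole quadriceps was sequenced from wild-type male C57/Bl6 mice aged 22 to 26 weeks at sacrifice. Sedentary mice formed 1 group. The other 6 groups ran on a treadmill to exhaustion and were sampled 0, 6 or 72 h later, either without prior training (untrained) or after 12 weeks of voluntary wheel running (trained). Each of the 7 groups held 3 deposited libraries. No trained group without the treadmill run was analysed here, so training and the acute run cannot be told apart when trained muscle is compared with sedentary muscle. The hour of the day at which muscle was taken was not given in the sources used here.

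The first untrained 0 h and first trained 0 h libraries held identical values for all 53738 symbols, 25037 of them above 0, so the 21 deposited libraries were 20 distinct ones. This shared library was counted once. It entered a pooled 0 h group of 5 libraries and was left out of the 2 separate 0 h groups, which then held 2 libraries each. TPM values keep no read depth, so the depth behind each value is unknown. Each library listed 24931 to 26588 symbols above 0, and transcripts of the mitochondrial genome took 37.7% to 48.0% of the TPM. Transcripts that define muscle fibres summed to 50700 to 67900 TPM, while those of satellite cells stayed at or below 0.965 TPM in sum and those of lymphocytes at or below 1.2 TPM. Because the muscle was sampled in bulk, fewer cells of a type and less RNA per cell cannot be told apart.

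The glucocorticoid receptor is a nuclear receptor that is held in the cytoplasm by HSP90 chaperones until it binds cortisol or, in rodents, corticosterone. It then enters the nucleus, binds DNA at glucocorticoid response elements and raises or lowers transcription nearby. In skeletal muscle the hormone is known for restraining insulin signalling and protein synthesis and for favouring the release of amino acids. Its target genes encode feedback regulators of the receptor (Fkbp5), transcriptional regulators (Tsc22d3, Zbtb16, Cebpd), regulators of the insulin, PI3K and mTOR pathways (Ddit4, Sgk1, Pik3r1) and an enzyme of amino acid metabolism (Glul). Several are also induced by other signals, Ddit4 by hypoxia and energy stress for example.

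The DNA around the start of each gene was read first, because a response element is what the members could share. The palindromic element was spelled as AGAACA and TGTTCT with any 3 bases between them. A looser core, ACA and TGT with any 3 bases between them, G 2 positions before ACA and C 2 positions after TGT, includes the palindrome and was added after the data had been seen. Both were searched on both strands within 10000 bases of 1 annotated start per gene in GRCm39. The palindrome was found near 1 of the 9 members, Sgk1, and near 25 of the 9681 protein-coding genes searched (0.258%). The core was found near 4 of the 9 members, Sgk1, Glul, Fkbp5 and Cebpd, against 2790 of 9681 genes (28.8%). Neither form, nor the hexamer TGTTCT, occurred in the 250 bases before to 50 bases after the start of any of the 9, where the hexamer occurred in 12.8% and the core in 0.279% of genes. A match is a stretch of letters and not a measured binding site, and starts other than the 1 used per gene were not searched. The match of Cebpd, at position 2554 in an exon, is not shown. The 7 stretches below are given on the strand of the gene, with positions counted from the start used and the match in capitals, and they show how far the spacer and the outer bases varied among Sgk1, Glul and Fkbp5.
Sgk1, position -958, within an annotated gene whose longer transcripts start further upstream, palindrome, chr10:21869592-21869622: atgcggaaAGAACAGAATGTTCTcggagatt
Sgk1, position 5691, downstream of the gene, core, chr10:21876242-21876270: ggtcctatGGACAGCTTGTCCttacattt
Glul, position -3452, upstream of the gene, core, chr1:153772857-153772885: aagtggagGAACAGGCTGTTCttttaatt
Glul, position 1055, intron, core, chr1:153777364-153777392: ttggaggaGAACAATATGTTCcctctcca
Glul, position 9214, downstream of the gene, core, chr1:153785523-153785551: ttgtttacGGACAAAATGTGCttatctgt
Fkbp5, position 1219, intron, core, chr17:28703919-28703947: ggggctcgGGACAGGGTGTACagcgcttg
Fkbp5, position 7917, intron, core, chr17:28697221-28697249: agaggctgGTACAGGATGTTCatagcagc

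The 9 genes followed 4 courses. Ddit4, Tsc22d3 and Sgk1 had their highest means at 0 h and lower means at 6 h and 72 h. From 0 h to 6 h the fall of Ddit4 was called in both training states. That of Tsc22d3 was called in trained but not in untrained muscle (-0.51, adjusted p = 0.154). The fall of Sgk1 was called in neither (-0.29 in untrained and -0.57 in trained muscle, adjusted p = 0.568 and 0.151). Fkbp5 and Glul were raised at 0 h and at 6 h, and Cebpd, at far lower levels, was called at 0 h in the pooled group and at 6 h in untrained muscle. Pik3r1 was called against sedentary muscle only at 6 h, with an uncalled 0.29 at 72 h in trained muscle (adjusted p = 0.45). Nr3c1 and Zbtb16 were called in 0 of the 6 separate comparisons with sedentary muscle. A gene was called where the limma fit on log2(TPM + 0.5) gave a Benjamini-Hochberg adjusted p under 0.05 over all genes tested together with a change of 1.5-fold or more in either direction. On that scale fold changes of genes with few TPM are understated. Over the 6 comparisons, 7 of the 9 members were called at least once, against 1038 of 11822 genes (8.78%), a description only, since the members were not chosen blind to the results. Cebpd was carried past the filter by the groups in which it is high, so its calls are descriptions too, and each count of members that includes it is 1 lower without it. The same 3 sedentary libraries serve all 6 comparisons.

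**Figure D1:**
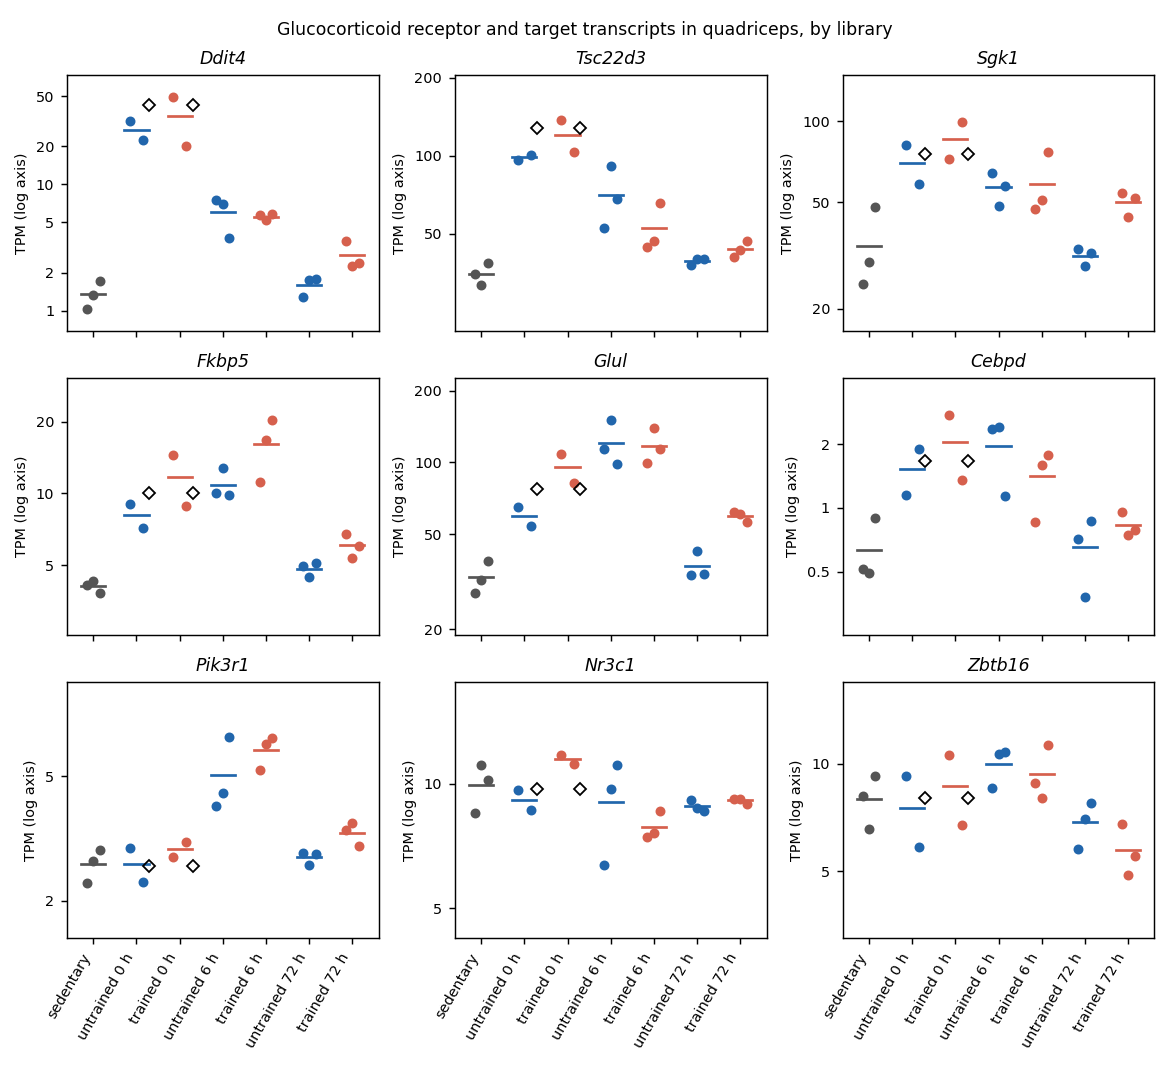
TPM of each gene on a log axis in every library, by group (grey, sedentary; blue, untrained; red, trained); horizontal lines are group means without the shared 0 h library, which is drawn as an open diamond in both 0 h groups. Ddit4 lay between 1.03 and 1.71 TPM in sedentary muscle and between 20.02 and 49.3 TPM at 0 h, whereas the ranges of Zbtb16 in those groups overlapped.

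The receptor itself came first. Nr3c1 measured 8.51, 11.1 and 10.2 TPM in the 3 sedentary libraries, 9.65 and 8.65 TPM without training and 11.7 and 11.2 TPM with it at 0 h, with 9.72 TPM in the shared library. At 6 h it measured 6.35, 9.72 and 11.1 TPM without training and 7.44, 7.62 and 8.57 TPM with it. At 72 h it measured 9.14, 8.73 and 8.61 TPM without training and 9.18, 9.20 and 8.95 TPM with it. The groups overlapped sedentary muscle, apart from the 2 trained 0 h libraries, which lay above it. The pooled 0 h group differed from sedentary muscle by 0.03 on the log2 scale, with a 95% interval of -0.25 to 0.32. In trained muscle Nr3c1 was lower at 6 h than at 0 h by a log2 fold change of -0.52 (adjusted p = 0.0466), which passed the p threshold but not the fold threshold.

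Fkbp5 encodes a co-chaperone of HSP90 that lowers the affinity of the receptor for its hormone, and its induction is a standard readout of receptor activity. It measured 4.13, 4.27 and 3.82 TPM in sedentary muscle, and 9.06, 7.13, 14.5 and 8.89 TPM at 0 h in the 2 untrained and 2 trained libraries, with 9.997 TPM in the shared one. The 6 h values were 9.99, 12.7 and 9.87 TPM without training and 11.2, 16.8 and 20.3 TPM with it. At 72 h it measured 4.94, 4.44 and 5.09 TPM without training and 6.78, 5.35 and 5.99 TPM with it. Every exercised library, including those at 72 h, lay above the highest sedentary one. Fkbp5 rose 2.22-fold in the pooled 0 h group (log2 fold change 1.15 ± 0.19 SE, adjusted p = 7.31e-04). At 6 h it rose 2.47-fold in untrained (1.30 ± 0.20, adjusted p = 9.09e-04) and 3.53-fold in trained muscle (1.82 ± 0.20, adjusted p = 1.49e-04), and the trained 6 h mean of 16.1 TPM was its highest.

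Tsc22d3 encodes GILZ, a leucine zipper protein that carries out part of the anti-inflammatory action of glucocorticoids. It measured 35.1, 31.7 and 38.6 TPM in sedentary muscle. At 0 h it measured 96.7 and 101 TPM in the untrained libraries, 137 and 104 TPM in the trained ones and 128 TPM in the shared library, so that its lowest 0 h value was far above its highest sedentary value. By 6 h it had come down to 52.6, 91.7 and 68.0 TPM in untrained and to 44.6, 47.0 and 65.9 TPM in trained muscle. At 72 h it measured 37.8, 40.1 and 40.0 TPM without training and 40.9, 43.2 and 46.9 TPM with it, the latter wholly above the sedentary range. The rise in the pooled 0 h group was 3.17-fold (1.67 ± 0.16, adjusted p = 4.05e-06). At 6 h Tsc22d3 was still 1.96-fold up in untrained muscle (0.97 ± 0.18, adjusted p = 3.63e-03), while in trained muscle the log2 fold change of 0.56 had an adjusted p of 0.0652. Within trained muscle it fell between 0 h and 6 h to 0.436 of its 0 h level (adjusted p = 1.67e-03).

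Zbtb16 encodes PLZF, a zinc finger transcription factor that glucocorticoids induce in several cell types. It measured 8.11, 6.56 and 9.25 TPM in sedentary muscle, and its 0 h values of 9.21, 5.84, 10.6 and 6.75 TPM, with 8.02 TPM in the shared library, lay on both sides of that range. Values at 6 h were 8.54, 10.6 and 10.8 TPM without training and 8.83, 8.02 and 11.3 TPM with it. At 72 h it measured 5.78, 7.02 and 7.75 TPM without training and 6.79, 4.87 and 5.51 TPM with it. No group stood clear of its neighbours in the order of means, which ran from 9.99 TPM at 6 h in untrained to 5.72 TPM at 72 h in trained muscle. The step from 6 h to 72 h in trained muscle was -0.66 on the log2 scale with an adjusted p of 0.0603.

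Cebpd encodes a C/EBP transcription factor of the acute phase response. It was the scarcest of the 9, at 0.512, 0.4934 and 0.896 TPM in sedentary muscle. At 0 h it measured 1.16 and 1.90 TPM in the untrained libraries, 2.74 and 1.36 TPM in the trained ones and 1.67 TPM in the shared library, all above the sedentary range. At 6 h it measured 2.36, 2.41 and 1.14 TPM without training and 0.857, 1.603 and 1.77 TPM with it, and at 72 h 0.713, 0.377 and 0.868 TPM without training and 0.954, 0.742 and 0.783 TPM with it. The log2 fold change of Cebpd was 0.98 ± 0.25 in the pooled 0 h group (adjusted p = 0.0182) and 1.09 ± 0.29 at 6 h in untrained muscle (adjusted p = 0.0292), and the latter call was lost when no filter was applied (1.09, adjusted p = 0.0656). The first call was lost without sedentary replicate 1 or 2 (0.90 and 0.89, adjusted p = 0.0839 and 0.0966). The second was lost without sedentary replicate 1 or 2 (1.02 and 1.01, adjusted p = 0.0943 and 0.099) or untrained 6 h replicate 1 or 2 (0.97 and 0.95, adjusted p = 0.073 and 0.109).

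Ddit4 encodes REDD1, an inhibitor of the growth-promoting kinase complex mTORC1, and it had the largest change of the 9 at 0 h. It measured 1.03, 1.33 and 1.71 TPM in sedentary muscle. Immediately after the run it measured 31.7 and 22.4 TPM in the untrained libraries, 49.3 and 20.02 TPM in the trained ones and 42.1 TPM in the shared library. Its 6 h values were 7.48, 6.95 and 3.77 TPM without training and 5.69, 5.21 and 5.78 TPM with it, lower than at 0 h and still above every sedentary library. At 72 h untrained muscle, at 1.28, 1.76 and 1.79 TPM, overlapped the sedentary range, and trained muscle, at 3.55, 2.25 and 2.40 TPM, did not. The rise in the pooled 0 h group was 17.3-fold (4.11 ± 0.27, adjusted p = 6.32e-08). At 6 h Ddit4 was 3.45-fold up in untrained (1.78 ± 0.30, adjusted p = 1.92e-03) and 3.29-fold up in trained muscle (1.72 ± 0.30, adjusted p = 2.90e-03). From 0 h to 6 h it fell by 2.10 on the log2 scale in untrained (adjusted p = 1.66e-03) and by 2.40 in trained muscle (adjusted p = 4.50e-04).

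Sgk1 encodes a kinase related to AKT that acts downstream of PI3K. It measured 24.7, 29.9 and 47.8 TPM in sedentary muscle, the widest sedentary spread of the 9 in TPM. At 0 h it measured 81.8 and 58.2 TPM in the untrained libraries, 72.2 and 99.8 TPM in the trained ones and 75.8 TPM in the shared library. At 6 h the values were 64.2, 48.4 and 57.4 TPM without training and 47.0, 51.0 and 77.0 TPM with it, the lowest of which fell below the highest sedentary value. At 72 h they were 33.3, 28.7 and 32.2 TPM without training and 53.9, 44.0 and 51.8 TPM with it. Sgk1 rose 2.31-fold in the pooled 0 h group (1.21 ± 0.21, adjusted p = 1.03e-03). At 6 h the log2 fold change was 0.77 (adjusted p = 0.058) in untrained and 0.79 (adjusted p = 0.0483) in trained muscle. The trained 6 h call was lost without trained 6 h replicate 1, 2 or 3 (0.92, 0.87 and 0.57, adjusted p = 0.0535, 0.0661 and 0.184) and without sedentary replicate 1 or 2 (0.59 and 0.72, adjusted p = 0.181 and 0.13). The untrained 6 h value was called without sedentary replicate 3 (1.04, adjusted p = 0.0105).

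Pik3r1 encodes the main regulatory subunit of PI3K, which glucocorticoids induce in muscle and which in excess dampens insulin signalling. It measured 2.28, 2.68 and 2.90 TPM in sedentary muscle, and at 0 h 2.94, 2.30, 2.77 and 3.08 TPM, with 2.58 TPM in the shared library. In the 6 h groups it reached 4.02, 4.41 and 6.66 TPM without training and 5.22, 6.35 and 6.61 TPM with it, every value above every sedentary and 0 h library. At 72 h it measured 2.84, 2.61 and 2.83 TPM without training and 3.36, 3.53 and 2.99 TPM with it. The pooled 0 h group differed from sedentary muscle by 0.05 on the log2 scale (95% interval -0.22 to 0.32). At 6 h Pik3r1 rose 1.74-fold in untrained (0.80 ± 0.15, adjusted p = 3.67e-03) and 2.10-fold in trained muscle (1.07 ± 0.15, adjusted p = 6.97e-04). It also rose from 0 h to 6 h, by 0.80 in untrained (adjusted p = 8.88e-03) and 0.93 in trained muscle (adjusted p = 2.47e-03). The untrained step was lost without untrained 0 h replicate 3 (0.65, adjusted p = 0.125).

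Glul encodes glutamine synthetase, the enzyme that makes glutamine from glutamate and ammonia and a source of the glutamine that muscle releases. It measured 28.4, 32.2 and 38.6 TPM in sedentary muscle, and at 0 h 65.2 and 53.9 TPM in the untrained libraries, 109 and 82.1 TPM in the trained ones and 77.5 TPM in the shared library. At 6 h it measured 114, 151 and 98.8 TPM without training and 99.8, 140 and 114 TPM with it. At 72 h untrained muscle, at 33.8, 42.4 and 34.0 TPM, overlapped the sedentary range, and trained muscle, at 62.1, 60.6 and 56.0 TPM, was above it in all 3 libraries. Glul rose 2.28-fold in the pooled 0 h group (1.19 ± 0.19, adjusted p = 6.00e-04), 3.59-fold at 6 h in untrained (1.85 ± 0.17, adjusted p = 1.54e-05) and 3.52-fold at 6 h in trained muscle (1.82 ± 0.17, adjusted p = 6.46e-05). From 0 h to 6 h it rose in untrained muscle by 1.00 (adjusted p = 5.81e-03), a call lost without untrained 0 h replicate 3 (0.86, adjusted p = 0.0872).

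Taking the time points in turn, 6 of the 9 genes were called higher in the pooled 0 h group than in sedentary muscle, against 3.31% of the 11830 genes tested. These were Ddit4, Tsc22d3, Sgk1, Glul, Fkbp5 and Cebpd. In the separate 0 h groups, of 2 libraries each, 5 were called higher in untrained (2.43% of genes) and the same 5, Ddit4, Tsc22d3, Sgk1, Fkbp5 and Glul, in trained muscle (3.05% of genes). Of the untrained 0 h calls, those of Ddit4 (3.89) and Tsc22d3 (1.48) remained when any 1 library was left out. The untrained 0 h call of Fkbp5 (0.90, adjusted p = 0.0352) was lost without sedentary replicate 1, 2 or 3 (0.91, 0.93 and 0.86, adjusted p = 0.0887, 0.0805 and 0.0722) or untrained 0 h replicate 2 or 3 (0.74 and 1.06, adjusted p = 0.297 and 0.0791). Those of Glul (0.84, adjusted p = 0.0238) and Sgk1 (1.06, adjusted p = 0.0368) were lost without sedentary replicate 1 (0.74 and 0.86, adjusted p = 0.0956 and 0.132), sedentary replicate 2 (0.83 and 0.99, adjusted p = 0.0756 and 0.123), untrained 0 h replicate 2 (0.71 and 0.82, adjusted p = 0.238 and 0.325) or untrained 0 h replicate 3 (0.98 and 1.30, adjusted p = 0.0624 and 0.0622). In trained muscle the call of Sgk1 (1.36, adjusted p = 6.98e-03) was lost without trained 0 h replicate 3 (1.13, adjusted p = 0.0922).

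At 6 h, 6 of the 9 were called higher in untrained muscle than in sedentary muscle, against 3.38% of 11822 genes, and 5 in trained muscle, against 2.41%. Ddit4, Fkbp5, Glul and Pik3r1 were called in both. Cebpd and Tsc22d3 were called in untrained and Sgk1 in trained muscle, and for none of these was the difference between trained and untrained muscle itself called. The median log2 fold change over the 9 was 0.97 in untrained and 0.79 in trained muscle, where the median over all genes was 0.01 and -0.01. Between 0 h and 6 h, 3 of the 9 were called in untrained muscle (4.13% of genes), Ddit4 lower and Glul and Pik3r1 higher. In trained muscle 3 were called as well (5.74% of genes), Ddit4 and Tsc22d3 lower and Pik3r1 higher.

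**Figure D2:**
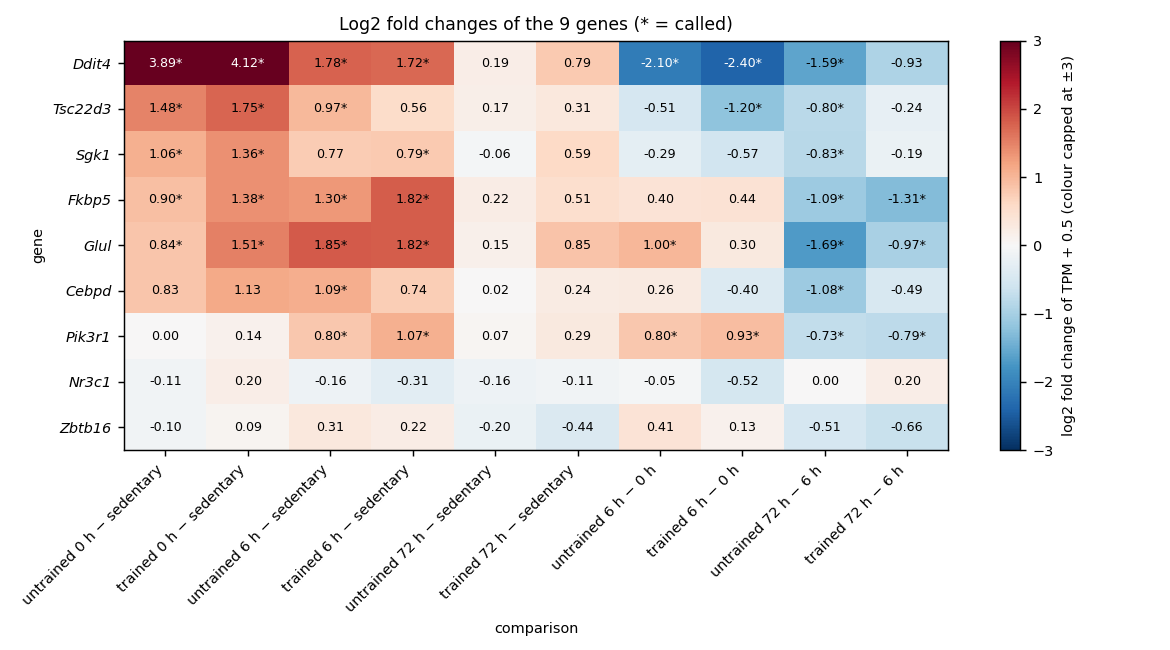
Log2 fold changes of TPM + 0.5 for the 9 genes (rows) in 10 comparisons (columns), the first 6 against sedentary muscle and the last 4 between consecutive times; red is higher and blue lower in the first-named group, and asterisks mark called values. Ddit4 led at 0 h at 3.89 and 4.12, Glul reached 1.85 and 1.82 at 6 h, and the columns for 72 h against sedentary muscle hold no asterisk.

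Recovery was read from the step between 6 h and 72 h. In untrained muscle 7 of the 9 were called lower at 72 h, all but Nr3c1 and Zbtb16, against 2.77% of genes. The falls on the log2 scale were largest for Glul (-1.69, adjusted p = 3.83e-05), Ddit4 (-1.59, adjusted p = 4.64e-03) and Fkbp5 (-1.09, adjusted p = 3.88e-03). Tsc22d3 fell by 0.80 (adjusted p = 0.0123). Those of 3 other genes depended on single libraries. Cebpd (-1.08, adjusted p = 0.0323) lost its call when no filter was applied (adjusted p = 0.0709), and without untrained 6 h replicate 1 or 2 (-0.95 and -0.94, adjusted p = 0.0856 and 0.108) or untrained 72 h replicate 1 or 2 (-1.13 and -0.89, adjusted p = 0.0686 and 0.132). Sgk1 (-0.83, adjusted p = 0.0418) lost its call without untrained 6 h replicate 1 or 3 (-0.74 and -0.82, adjusted p = 0.104 and 0.102) or any of the untrained 72 h replicates 1, 2 and 3 (-0.88, -0.77 and -0.85, adjusted p = 0.0836, 0.132 and 0.091). Pik3r1 (-0.73, adjusted p = 7.17e-03) dropped under the fold threshold without untrained 6 h replicate 3 (-0.53, adjusted p = 0.0179). In trained muscle 3 of the 9 were called lower, against 2.48% of genes, namely Fkbp5 (-1.31, adjusted p = 9.89e-04), Glul (-0.97, adjusted p = 3.11e-03) and Pik3r1 (-0.79, adjusted p = 4.46e-03). Of the others, Zbtb16 (-0.66, adjusted p = 0.0603) and Ddit4 (-0.93, adjusted p = 0.0744) came closest to a call. Whether the step from 6 h to 72 h differed between training states was not tested.

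At 72 h, 0 of the 9 were called against sedentary muscle in either training state by limma. In untrained muscle 0.00846% of all genes were called, and 0 of the 9 had an unadjusted p under 0.05. The intervals there were wide enough to hold changes such as 0.84 for Ddit4 (95% interval -0.46 to 0.84) and 0.53 for Glul (-0.22 to 0.53). In trained muscle 0.245% of genes were called, and 5 of the 9 had an unadjusted p under 0.05, against 12.8% of all genes. These were Glul (0.85, 95% interval 0.48 to 1.22, adjusted p = 0.0508), Ddit4 (0.79, adjusted p = 0.273), Sgk1 (0.59, adjusted p = 0.302), Fkbp5 (0.51, adjusted p = 0.289) and, in the other direction, Zbtb16 (-0.44, adjusted p = 0.385). All 3 trained 72 h libraries lay above all 3 sedentary ones for 5 of the 9, Ddit4, Fkbp5, Glul, Pik3r1 and Tsc22d3, as they did for 5.64% of all genes. With TPM rescaled without mitochondrial transcripts and the 10 most abundant genes, a scaling of this count added after the data had been seen, 6 of the 9 lay above, Sgk1 being added, and so did 14.2% of all genes.

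Trained and untrained muscle were then compared at each time, and 0 of the 9 were called 0, 6 or 72 h after the run, where 0.0%, 1.93% and 0.364% of all genes were. At an unadjusted p under 0.05 there were 1 of the 9 at 0 h (Glul), 2 at 6 h (Fkbp5 and Tsc22d3) and 2 at 72 h (Glul and Sgk1), against 4.46%, 19.1% and 16.3% of all genes. At 0 h the difference for Glul was 0.67 (95% interval 0.21 to 1.13, adjusted p = 0.991), and that for Ddit4 was 0.24 with an interval of -0.56 to 1.03. At 6 h Fkbp5 was 0.52 higher in trained muscle (0.09 to 0.95, adjusted p = 0.165) and Tsc22d3 0.41 lower on the log2 scale (-0.80 to -0.03, adjusted p = 0.227). Fkbp5 was called without trained 6 h replicate 1 (0.75, adjusted p = 0.0426), and Tsc22d3 without untrained 6 h replicate 1 (-0.61, adjusted p = 0.0436). For Glul at 6 h the difference was -0.03, with an interval of -0.40 to 0.34.

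The 72 h contrast between training states was the one in which most members were separated. All 3 trained libraries lay above all 3 untrained ones for 6 of the 9 genes, Ddit4, Fkbp5, Glul, Pik3r1, Sgk1 and Tsc22d3, as they did for 3.95% of all genes, while 8 of the 9 had a higher mean log2 value, against 29.9% of genes. The differences were 0.69 for Glul (0.32 to 1.07, adjusted p = 0.0759), 0.66 for Sgk1 (0.15 to 1.16, adjusted p = 0.182), 0.60 for Ddit4 (-0.04 to 1.25, adjusted p = 0.348) and 0.29 for Fkbp5 (-0.14 to 0.72, adjusted p = 0.515). Mitochondrial transcripts took 46.7% to 48.0% of the TPM in trained and 42.3% to 44.3% in untrained muscle at 72 h. With TPM rescaled in the way described above, 7 of the 9 were separated upwards, Nr3c1 being added, and so were 12.4% of all genes. That rescaling moved the median difference of all genes from -0.08 to 0.02. The 29.9% of genes with a higher mean therefore depends on the scale, and that share was not counted after rescaling. Adipocyte markers (4 genes) summed to 55.4 to 57.0 TPM in trained and 31.9 to 125 TPM in untrained muscle at 72 h, and to 23.0 to 39.3 TPM in sedentary muscle, and their part in the result was not tested. Macrophage markers (7 genes) summed to 24.5 to 29.1 TPM in trained and 34.6 to 35.7 TPM in untrained muscle at 72 h.

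**Figure D3:**
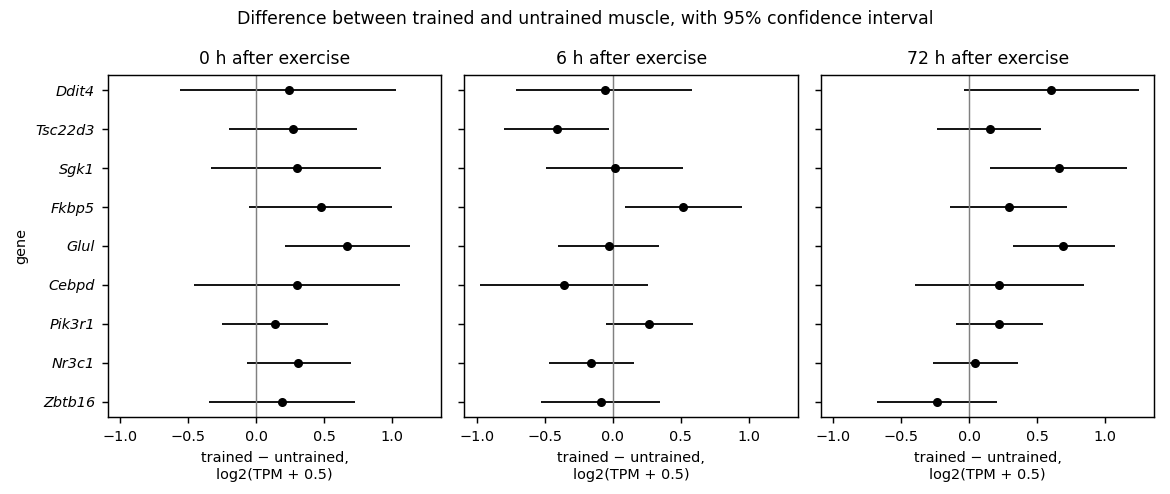
Difference between trained and untrained muscle (x axis, log2(TPM + 0.5)) for the 9 genes, with 1 panel per time after the run; points are limma estimates and bars 95% confidence intervals. At 72 h the intervals of Glul (0.32 to 1.07) and Sgk1 (0.15 to 1.16) lie right of 0, and no difference in any panel was called after adjustment over all genes.

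Core clock genes moved at the same contrast. Among 15 tested, Per1, Per2, Ciart and Hlf were called higher and Arntl, which encodes the clock activator BMAL1, lower in the trained than in the untrained 72 h group, and 0 of the 15 were called between 72 h and sedentary in untrained muscle (1 at an unadjusted p under 0.05). Of all genes, 0.364% were called in the first of these comparisons and 0.00846% in the second. Per1, itself a direct target of the glucocorticoid receptor, had a mean of 8.14 ± 1.79 TPM (SD, n = 3) in trained and 2.08 ± 0.780 TPM (SD, n = 3) in untrained muscle at 72 h and 2.01 ± 0.773 TPM (SD, n = 3) in sedentary muscle. Its difference of 1.76 between training states (adjusted p = 9.97e-03) was lost without untrained 72 h replicate 2 (1.64, adjusted p = 0.0838) or trained 72 h replicate 2 (1.66, adjusted p = 0.0648). Arntl, at -1.51 (adjusted p = 7.69e-03), was lost without trained 72 h replicate 2 (-1.41, adjusted p = 0.0645). Ciart (2.08) and Hlf (0.80) were also lost without trained 72 h replicate 2 (2.06 and 0.70, adjusted p = 0.0589 and 0.0648), Hlf also without untrained 72 h replicate 2 (0.81, adjusted p = 0.0513). Per2 (1.12) was lost without untrained 72 h replicate 1 or 2 (1.07 and 1.02, adjusted p = 0.0603 and 0.097) or trained 72 h replicate 2 or 3 (1.01 and 1.14, adjusted p = 0.109 and 0.0544). Clock genes were also called in other comparisons. Against sedentary muscle at 0 h, 3 of the 15 were higher without training, while trained muscle had 3 higher and 1 lower. The 6 h counts were 3 higher and 2 lower untrained, 3 higher and 1 lower trained. From 6 h to 72 h, 2 rose and 3 fell without training, whereas 6 rose and 1 fell after it. Shares of all genes called ran from 2.89% to 4.22% in these comparisons. Clock genes and several members vary over the day, and the hour of sampling was not given. The part of the hour in the member results at 0, 6 or 72 h was not tested.

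The wider set of glucocorticoid-induced genes, 24 others of which 23 were tested, held both genes that were called and genes that were not. In the pooled 0 h group 11 of the 23 were called higher and 0 lower, beside 3.31% of all genes called higher, and in each separate 0 h group 10 were called higher, beside 2.43% in untrained and 3.05% in trained muscle. The largest changes at 0 h in untrained muscle were those of Per1 (3.03, with 3.30 in trained muscle), Irs2 (2.51 and 2.80), Arrdc2 (2.48 and 3.07) and Errfi1 (2.38 and 2.77). These encode a clock repressor, an insulin receptor substrate, an arrestin family protein and a feedback inhibitor of EGF receptor signalling. In trained muscle the called change of Dusp1 at 0 h ranked after that of Arrdc2 and before that of Irs2. At 6 h 9 were called higher in untrained (3.38% of all genes) and 8 in trained muscle (2.41%), led by the metallothioneins Mt2 (3.64 and 3.31) and Mt1 (3.09 and 2.76). The atrophy-associated ubiquitin ligases Fbxo32 and Trim63, the kinase gene Pdk4 and the transcription factor genes Klf15 and Klf9 were called in none of the 6 separate comparisons with sedentary muscle. Their values at 0 h in untrained muscle were -0.51, -0.23, -0.26, -0.18 and 0.06. Between times in untrained muscle Trim63 was called higher at 6 h than at 0 h (0.79, adjusted p = 0.0229) and lower at 72 h than at 6 h (-0.79, adjusted p = 0.0107), and Pdk4 was called lower at 72 h than at 6 h (-2.57, adjusted p = 0.0193). The rise of Trim63 was lost without untrained 0 h replicate 2 or 3 (0.68 and 0.89, adjusted p = 0.182 and 0.077), and without untrained 6 h replicate 2 both its rise (0.50) and its fall (-0.50) came under the fold threshold. The fall of Pdk4 was lost without untrained 6 h replicate 2 (-2.43, adjusted p = 0.0621) or untrained 72 h replicate 2 or 3 (-2.47 and -2.13, adjusted p = 0.071 and 0.0861). In trained muscle Trim63 was lower at 72 h than at 6 h (-0.62, adjusted p = 0.0355), a call lost when any 1 of the 6 libraries was left out (-0.65 to -0.57, adjusted p = 0.0753 to 0.118). The median over the 23 was 0.44 in the pooled 0 h group, beside 0.11 over all genes. At 72 h 0 of the 23 were called in untrained muscle (2 at an unadjusted p under 0.05) and 1 in trained muscle, Per1 (1.81, adjusted p = 9.28e-03), a call lost without trained 72 h replicate 2 (1.71, adjusted p = 0.0768). Of all genes, 0.00846% were called at 72 h in untrained and 0.245% in trained muscle. The 8 inflammatory genes that glucocorticoids repress, Il6, Il1b and Tnf among them, did not reach a mean of 1 TPM and were not tested.

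**Figure D4:**
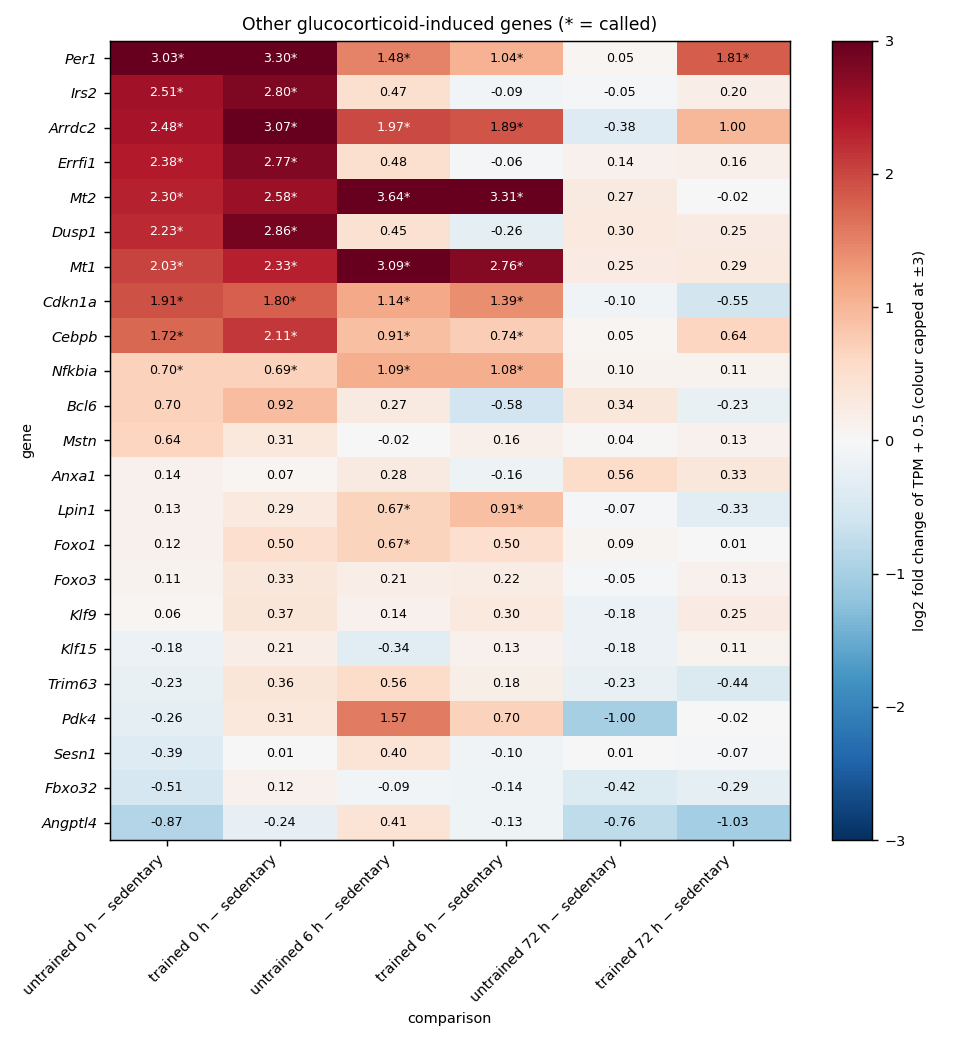
Log2 fold changes of TPM + 0.5 against sedentary muscle for the 23 other glucocorticoid-induced genes tested (rows, ordered by the untrained 0 h value) in the 6 exercised groups (columns); red is higher, blue lower, and asterisks mark called values. Per1 heads the order at 3.03 and 3.30 at 0 h, Mt2 and Mt1 exceed 2.7 in both 6 h columns, and in the 72 h columns the only asterisk is that of Per1 in trained muscle.

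Some of the chaperones that hold the receptor moved as well. Of 12 tested genes of receptor machinery and hormone metabolism, 5 were called higher and 0 lower in the pooled 0 h group, beside 3.31% of all genes called higher. These were Hsp90aa1, Stip1, Nrip1, Hsp90ab1 and Ptges3, of which Nrip1 does not encode a chaperone. Fkbp4, a paralog of Fkbp5, was not called there. Hsp90aa1, the stress-inducible HSP90, measured 12.4 ± 3.54 TPM (SD, n = 3) in sedentary muscle, 121 ± 38.5 TPM (SD, n = 5) in the pooled 0 h group, 148 ± 34.3 TPM (SD, n = 3) at 6 h in untrained and 38.6 ± 16.4 TPM (SD, n = 3) at 6 h in trained muscle. It was the 1 gene of these 12 that was called between trained and untrained muscle at 6 h (-1.97, adjusted p = 2.16e-03), beside 1.93% of all genes. Nr3c2, which encodes the mineralocorticoid receptor, the closest relative of Nr3c1, fell at 6 h in trained muscle by 1.08 on the log2 scale (adjusted p = 0.0113). In untrained muscle at 6 h it fell by 0.98 (adjusted p = 0.0202), a call lost without sedentary replicate 1 or 2 (-0.92 and -0.87, adjusted p = 0.0724 and 0.082) or untrained 6 h replicate 1 or 3 (-0.87 and -0.92, adjusted p = 0.0513 and 0.0688).

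Over the 6 separate comparisons with sedentary muscle, 8.78% of all genes were called at least once. Among 11 tested paralogs of the 9 genes, Cebpb and Nr3c2 were the only genes called in these comparisons. Cebpb, a C/EBP factor like Cebpd, rose at 0 h by 1.72 in untrained and 2.11 in trained muscle (adjusted p = 4.06e-04 and 6.19e-05). Of 12 tested partners of Pik3r1 in PI3K signalling, 5 were called against sedentary muscle in the 6 separate comparisons or the pooled one. Irs2 was called higher in both separate 0 h groups and in the pooled one, and Irs1, another insulin receptor substrate, in the pooled group alone (0.81, adjusted p = 0.027), a call lost without sedentary replicate 1 or 2 (0.84 and 0.77, adjusted p = 0.0746 and 0.113), the shared library (0.74, adjusted p = 0.0598) or trained 0 h replicate 2 (0.77, adjusted p = 0.0561), and lost after rescaling (0.70, adjusted p = 0.0935). Pik3cd, a catalytic subunit, was lower at 6 h (-0.89 in untrained and -0.98 in trained muscle, adjusted p = 8.85e-04 and 6.97e-04), and Mtor, which encodes the kinase of mTORC1, was higher at 6 h in trained muscle (0.71, adjusted p = 4.10e-04). Pik3ip1, which encodes an inhibitor of PI3K, was lower at 6 h in untrained muscle (-0.96, adjusted p = 0.0374), a call lost without sedentary replicate 1 or 2 (-0.78 and -0.98, adjusted p = 0.142 and 0.0845) or untrained 6 h replicate 3 (-0.65, adjusted p = 0.15).

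Markers of other cell types were set beside these results. At 6 h in untrained muscle the macrophage markers summed to 23.9 to 50.3 TPM, against 22.2 to 25.3 TPM in sedentary and 18.8 to 25.8 TPM at 6 h in trained muscle. In untrained muscle at 6 h 2 of the 6 tested were called higher, beside 3.38% of all genes. These were Cd68 (1.62, adjusted p = 2.02e-04) and Csf1r (0.61, adjusted p = 0.0298), the latter lost when any 1 of 5 libraries was left out, sedentary replicates 1, 2 and 3 (0.58, 0.61 and 0.63, adjusted p = 0.0934, 0.0769 and 0.057) and untrained 6 h replicates 2 and 3 (0.38 and 0.66, adjusted p = 0.0854 and 0.0504). At 6 h in trained muscle 0 of the 6 were called (0 at an unadjusted p under 0.05). Between trained and untrained muscle at 6 h, Cd68 and Csf1r were called lower in trained muscle, beside 1.93% of all genes called. There 5 of the 6 had an unadjusted p under 0.05, against 19.1% of all genes. The part of these markers in the 6 h values was not tested. In the separate 0 h groups the macrophage markers summed to 29.3 to 33.0 TPM with 0 called. Neutrophil markers summed to at most 1.92 TPM in any group.

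In some groups 1 library was the highest for most members. Sedentary replicate 3 was the highest of its group for 7 of the 9 genes and trained 6 h replicate 3 for 8. Replicate 2 of each separate 0 h group, with 2 libraries, was the highest for 7 of the 9. Trained 72 h replicate 1 was the highest for 6. Replicates 1, 2 and 3 were the highest for 2, 4 and 3 genes at 6 h in untrained muscle, and for 3, 2 and 4 at 72 h. The same order was not counted over all genes, so a shift of a whole library cannot be told apart from one of these genes. Across the 20 distinct libraries, the gene most like Fkbp5 among those with a mean of at least 5 TPM was Glul (Pearson r = 0.921 on the log2 scale), followed by Odc1 (0.909) and Ankrd9 (0.905), and Fkbp5 was in turn the gene most like Glul. Tsc22d3 was most like Tob2 (0.961), Jun (0.957) and Zfp36 (0.947), and Ddit4 most like Zfp36 (0.954), Tob2 (0.953) and Cebpb (0.95), so those 2 members had neighbours in common. Pik3r1 was most like Ppargc1a (0.908) and Gzf1 (0.901), and Sgk1 most like Arrdc2 (0.902), Aqp1 (0.857) and Gadd45g (0.843). Cebpd was most like Sorbs3 (0.888), Nr3c1 most like Adcy9 (0.825) and Zbtb16 most like Gm20412 (0.837). These coefficients describe libraries that share the same time course and scaling.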

How the data were processed

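Quadriceps RNA was prepared by the authors with a TruSeq RNA v2 kit, which does not mark strand, and sequenced in pairs on a NovaSeq instrument. Per the labels and the study's methods, the authors aligned reads to GRCm39 with STAR 2.7.9, quantified transcripts with Salmon 1.5.0 and deposited 1 table of TPM per gene symbol. The submitters' processing notes also name DESeq2 3.16. Libraries and columns were matched by name, and 0 columns stayed unassigned. From the deposited TPM, log2(TPM + 0.5) was fitted with limma 3.58.1 (R 4.3.3, trend, 1 mean per group, 19 libraries) over genes whose mean reached 1 TPM, with Benjamini-Hochberg adjustment over all of them in each of 14 comparisons. The pooled 0 h comparison was fitted separately over 20 libraries. Tests were tried on simulated data first. The labels do not say that libraries of a group came from separate animals, so p-values measure the spread between these libraries. Summaries used Python 3.11.15, and starts came from GENCODE's canonical transcripts. The 9 genes are named for their membership, and the rule for the lists was up to 4 called genes of largest change in a comparison. Other list genes were named outside that rule. Among them Fbxo32, Trim63, Pdk4, Klf15 and Klf9 were picked by name, and other uncalled genes of their list were not named. Members and lists were chosen with earlier results of these data known. Other settings and fits that leave out 1 library are given at the end. For 1 likeness value, the gene is not reported here.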

Additional observations from a re-analysis of the deposited data

Results flagged for a closer look

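The mean of Nr3c1 at 0 h was 2.31 TPM higher in trained than in untrained muscle. It stood out because both trained 0 h libraries lay above all sedentary libraries while both untrained 0 h libraries lay below the sedentary mean. The difference on the log2 scale was 0.31 (adjusted p = 1), and the library shared by the 2 groups, at 9.72 TPM, took no part in it.

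The mean of Sgk1 at 72 h was 18.5 TPM higher in trained than in untrained muscle. It stood out because the 3 trained libraries lay above and the 3 untrained libraries below the sedentary mean of 34.1 TPM. The difference on the log2 scale was 0.66 (adjusted p = 0.182). Sedentary replicate 3, at 47.8 TPM, lay above 1 of the 3 trained 72 h libraries.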

How the results depend on the processing

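Of 78 values of the 9 genes that were called (43) or at least 0.3 in size, the other settings kept direction and call in 1079 cases, lost a call in 50, gained one in 24 and reversed none. Leaving out 1 library kept 400, lost 37 calls, gained 7 and reversed 2, both for Cebpd without trained 0 h replicate 2, namely trained against untrained muscle at 0 h (-0.10, range -0.10 to 0.70) and trained 6 h against trained 0 h (0.0016, range -0.80 to 0.0016). The number of the 9 genes called, trained 0 h against sedentary, was 3 in place of 5 when only the groups compared were fitted. In the same setting it was 1 in place of 3 for trained 6 h against 0 h, 3 in place of 6 for untrained 6 h against sedentary, 0 in place of 3 for untrained 6 h against 0 h, 4 in place of 7 for untrained 72 h against 6 h and 3 in place of 5 for untrained 0 h against sedentary; fewer libraries then estimate the spread. Against a minimum of 1.2-fold (limma's treat) these counts were 2 for untrained 0 h against sedentary, 1 for untrained 6 h against 0 h and 3 for untrained 72 h against 6 h. The untrained 0 h count was also 3 without a filter, 3 after rescaling without mitochondrial transcripts and the 10 highest genes, 2 after quantile normalization and 2 to 4 when 1 library was left out. With 1 library left out, untrained 6 h against 0 h gave 1 to 4, and trained against untrained muscle at 6 h gave 0 to 1. Trained 72 h against sedentary gave 1 in place of 0, Glul, with a pseudocount of 0.1, median-of-ratios scaling, a minimum mean of 5 TPM, the rescaling, quantile normalization, a robust fit, sample quality weights and the replicate block. Trained against untrained muscle at 72 h gave 1 in place of 0, again Glul, with the minimum mean of 5 TPM, quantile normalization, sample quality weights and the replicate block. Trained 72 h against 6 h gave 5 in place of 3 with sample quality weights. For these changes the cause was not tested. Samples with the same replicate number did not deviate together (mean r 0.00286 over 52 pairs, against -0.00146 over 102 pairs of different numbers), so the numbers were not read as pairs. The replicate block ended the calls of Fkbp5 in untrained 0 h against sedentary (adjusted p = 0.0702) and of Cebpd in untrained 6 h against sedentary (0.0509) and untrained 72 h against 6 h (0.0545). Rescaling moved the median of all genes in trained 0 h against sedentary from 0.12 to -0.01, and the share of its calls that were higher from 95% to 79.9%. For trained 6 h against 0 h the median moved from -0.14 to 0.00 and that share from 21.4% to 47.4%, and for trained against untrained muscle at 72 h the share moved from 30.2% to 55.6%. Of 190 called values of the genes in the other lists, 284 of 2803 alternative fits and 202 of 1118 fits without 1 library lost the call, and 0 reversed. Having 2 libraries in each separate 0 h group limits what differences there could be detected.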
